A study of Homo sapiens with 52 samples.

Results

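The genes of 10 transcription factors that govern blood formation were examined for contact with the nuclear lamina in single cells: MECOM, GATA2, RUNX1, TAL1, LMO2, ETV6, SPI1, FLI1, MYB and IKZF1. Each gene was represented by the 100 kb bins that overlap its hg19 interval, which gave 23 of the 30376 bins in the deposited data, all of them among the 26584 bins with a measured value. The 2 Mb on each side of a gene, 40 bins per gene, served as its flanks. The cells were KBM7, an established human chronic myeloid leukaemia line, of clone 14 with a ploidy of 2N. They expressed Dam methyltransferase fused to Lamin B1, and Shield1 at 0.5 nM stabilised the fusion for 15 h before the smallest cells positive for both Fucci cell cycle markers were sorted singly. All cells belong to 1 group of 1 clone, 51 of the 52 labelled cells were used, and no separate cultures are named. The cells therefore count as 1 sample, no p-value over cells is given, and each SD describes the spread between these cells. Both copies of a locus share 1 value, so contact of either copy cannot be told apart.

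The nuclear lamina is a protein mesh under the nuclear envelope, and the stretches of DNA that touch it are typically poor in genes and in transcription. In DamID the tethered methyltransferase marks adenines in the sequence GATC near the lamina, and DpnI cuts only the marked sites, so that reads start at GATC. The 10 proteins form a densely connected network: MECOM, GATA2 and RUNX1 maintain or generate blood stem cells, TAL1 and LMO2 sit together in a DNA-bound complex with GATA factors, ETV6, SPI1 and FLI1 belong to the ETS family, and MYB and IKZF1 act in progenitors and lymphoid cells. Many of these genes are broken, fused or misexpressed in leukaemia, and in acute myeloid leukaemia an inversion of chromosome 3 brings a GATA2 enhancer next to MECOM. RNA levels were not analysed here.

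The signal of a bin comes from GATC sites over its whole 100 kb, and a promoter contributes few or none of them. RefSeq windows from 250 bases before to 50 bases after a start (build GRCh38.p14, a different build from the bins) were matched by symbol for 7 of the 10 genes, all but SPI1, LMO2 and FLI1. Of 13 such windows 5 held GATC, which occurs in 41.7% of all 35116 windows in the table. GATC reads the same on both strands. The 4 windows below are shown because they belong to the contacted gene MECOM, to IKZF1, which lay in a short stretch without contact, and to RUNX1, around which no contact was seen; GATC is in capitals. The outer MECOM window held 1 site, the inner one shown held 3, and the IKZF1 and RUNX1 windows shown held 0. Of the windows not shown, the third MECOM window held 0 sites, and those of IKZF1 held 0 and 1. The single windows of ETV6 and MYB held 1 and 0, those of TAL1 held 1 and 0, and both GATA2 windows held 0, so sites in these windows did not separate MECOM from the other genes.
MECOM outermost start, chr3:169663663-169663962, minus strand: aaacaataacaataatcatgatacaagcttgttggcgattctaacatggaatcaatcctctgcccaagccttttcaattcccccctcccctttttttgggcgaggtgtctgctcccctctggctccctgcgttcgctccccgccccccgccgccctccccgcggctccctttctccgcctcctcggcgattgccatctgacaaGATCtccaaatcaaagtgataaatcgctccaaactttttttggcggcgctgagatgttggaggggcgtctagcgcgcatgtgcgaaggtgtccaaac
MECOM inner start, chr3:169147422-169147721, minus strand: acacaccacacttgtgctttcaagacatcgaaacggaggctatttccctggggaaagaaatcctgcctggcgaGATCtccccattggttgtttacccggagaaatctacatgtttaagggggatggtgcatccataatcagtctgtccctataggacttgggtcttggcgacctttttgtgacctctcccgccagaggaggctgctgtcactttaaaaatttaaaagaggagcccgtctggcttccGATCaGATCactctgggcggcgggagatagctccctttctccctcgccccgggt
IKZF1 outermost start, chr7:50304466-50304765, plus strand: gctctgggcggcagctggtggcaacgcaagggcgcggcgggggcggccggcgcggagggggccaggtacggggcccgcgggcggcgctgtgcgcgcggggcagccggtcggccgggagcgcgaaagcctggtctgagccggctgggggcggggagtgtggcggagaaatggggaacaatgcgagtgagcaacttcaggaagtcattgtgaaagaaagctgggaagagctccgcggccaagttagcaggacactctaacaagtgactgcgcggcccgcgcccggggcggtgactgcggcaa
RUNX1 listed start, chr21:34888650-34888949, minus strand: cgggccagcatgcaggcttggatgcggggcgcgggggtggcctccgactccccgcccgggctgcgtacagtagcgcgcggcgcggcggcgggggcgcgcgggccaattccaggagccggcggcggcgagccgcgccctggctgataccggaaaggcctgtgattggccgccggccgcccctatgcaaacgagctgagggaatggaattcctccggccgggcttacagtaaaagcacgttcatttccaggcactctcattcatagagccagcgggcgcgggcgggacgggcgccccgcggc
A value at any of these genes is thus a value of the surrounding 100 kb and not of its promoter.

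Contact with the lamina was seen at MECOM and at none of the other 9 genes. The values are the authors' ratios of observed to expected signal (OE), and contact means an OE of 1 or above. Every one of the 51 cells had contact in at least 1 MECOM bin, and no cell had contact in any of the 17 bins of the other 9 genes. Each cell thus had exactly 1 of the 10 genes in contact at this threshold. MECOM, with 6 bins against 1 to 4 for each other gene, had more chances of a contacted bin. The mean OE of its bins was below 1 in cells 16 (0.993), 43 (0.742) and 52 (0.555). At an OE of at least 2 the number of genes in contact varied between cells (median 1, SD 0.196). Among the 23 bins, 17 were contacted in no cell (73.9%), against 38.7% of all measured bins. The 6 MECOM bins were each contacted in at least 50% of cells, which is 26.1% of the 23 bins against 32.1% of all measured bins, and 4 of them in at least 80%, against 20.9% of all measured bins. Bins of 1 gene are neighbours and not independent, so the count that bears on the list is that of genes. No share over other genes or windows of gene size was computed. Whether 9 of 10 genes without contact departs from other genes was therefore not tested.

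**Figure D1:**
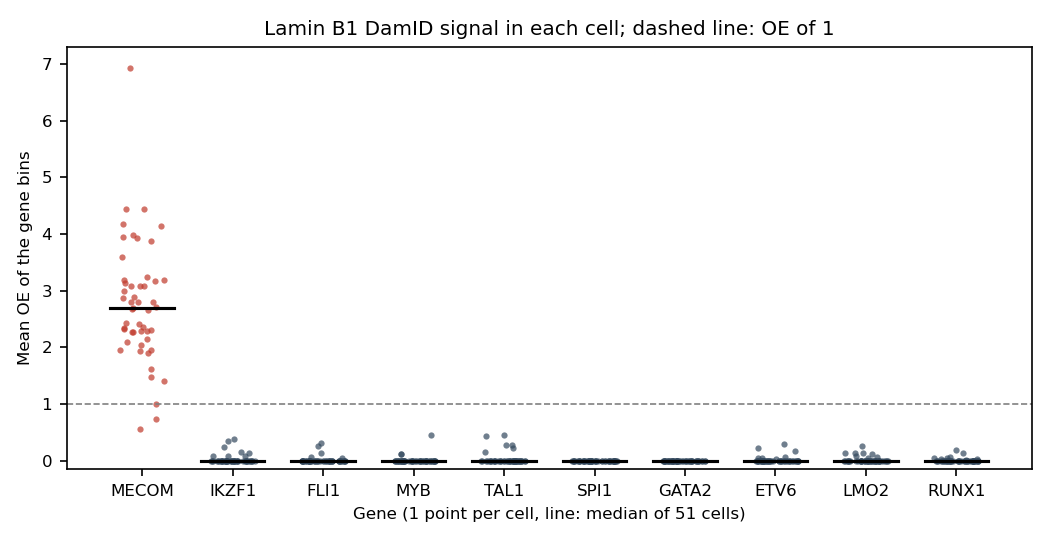
Mean OE of the bins of each gene (vertical axis) in each of 51 cells (points), with the median as a black line and an OE of 1 dashed. MECOM points lie between 0.555 and 6.93, while the points of the other 9 genes lie at or near 0, the highest at 0.452 for MYB.

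Depth sets how far the low values can be read. The deposited ratios convert back to whole reads per bin and cell, with 50978 to 316463 reads in a cell. The 17 bins of the 9 genes held 126 reads over all 51 cells, while the 6 MECOM bins held 6038. Only 7.15% of the values in the 17 bins were above 0, against 7.33% over all 10299 bins contacted in no cell and 49.9% over all measured bins. The 9 genes therefore did not stand apart from other bins without contact in this respect. At an OE of 1, the 15 of these bins that held any read would have held 1.29 to 2.98 reads in the shallowest cell and 8.03 to 18.6 in the deepest. Both lower values come from the first RUNX1 bin, whose expected number rests on 1 read and may be off by a whole factor. The next lowest bin, the first of IKZF1, gives 1.74 and 10.8. For a bin with reads, 0 of 51 cells with contact allows a share of up to 5.88%, taken as 3 counts over 51 cells. It treats the cells as independent, although they count as 1 sample here. This limit counts cells and takes every contacted cell as seen, while at so few reads a contacted cell can be missed, so the true limit is higher. The bins of GATA2 and SPI1 held no read in any cell, so their expected number could not be recovered and they have no such limit.

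The few reads of the 9 genes came mainly from 5 cells. Cells 23, 26, 32, 38 and 45 had the highest background, with 3.85% to 4.98% of their reads falling where 5% of cells or fewer had contact, against a median of 1.72% over all cells. They held 83 of the 126 reads (65.9%), although they held 15.3% of all reads and 14.5% of the MECOM reads. The background measure counts reads in all rarely contacted bins, these 17 among them. Cells chosen by it hold more reads in such bins by construction. Their share of the reads in all rarely contacted bins was not computed, so the 65.9% is not shown to be particular to the 9 genes. In 28 cells the 9 genes held no read at all. The highest single OE among them was 0.758, in the middle bin of ETV6 in cell 23, from 9 reads.

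**Figure D2:**
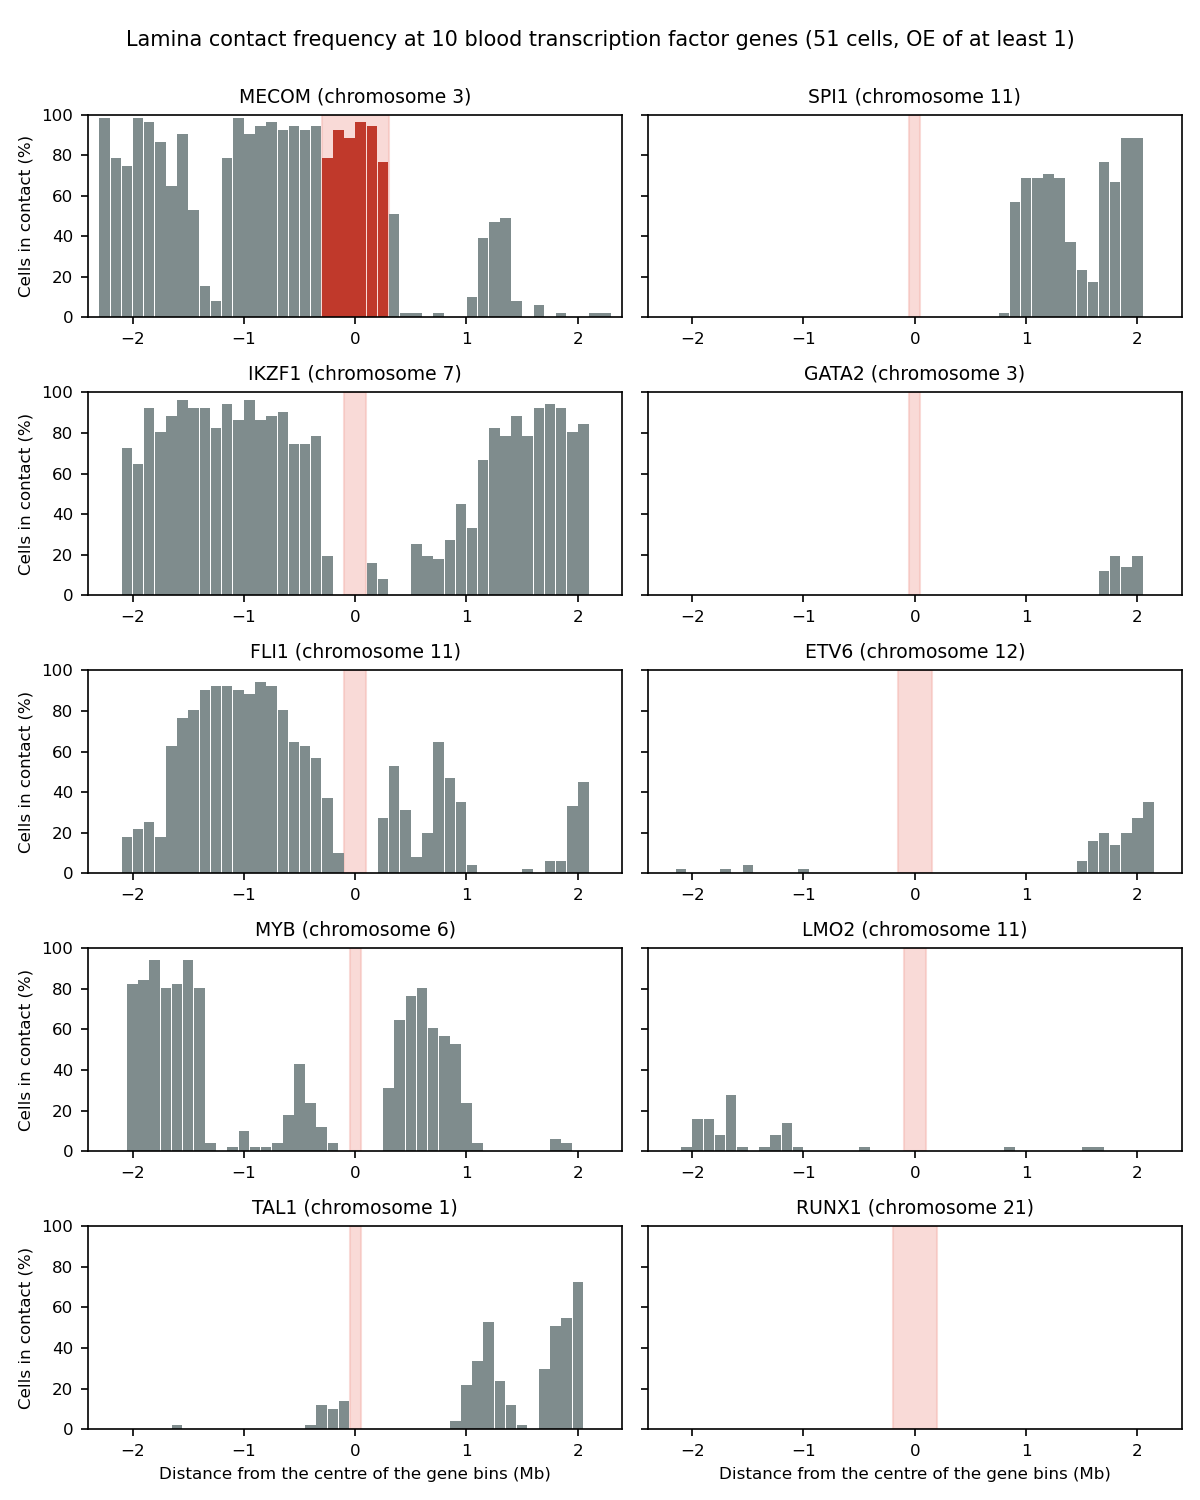
Percentage of the 51 cells in contact (vertical axis) in each 100 kb bin, by distance in Mb from the centre of the gene bins (horizontal axis). Gene bins are red on a pink background and flanks are grey. Contact in 50% of cells or more covers MECOM, lies 200 kb away on both sides of FLI1, below IKZF1 at 200 kb and above MYB at 300 kb, and no bin within 2 Mb of RUNX1 was contacted.

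MECOM, also known as EVI1, encodes a zinc finger factor that sustains blood stem cells and drives an aggressive form of acute myeloid leukaemia when overexpressed. Its 6 bins cover chromosome 3 from 168800001 to 169400000. The mean OE of the 6 bins was 0.555 in the lowest cell (cell 52), 2.70 in the median cell and 6.93 in the highest (cell 42). Contact covered 87.6% ± 20.0 of its bins (SD, n = 51 cells), against 45.3% ± 9.96 of its flanks and 37.1% ± 4.79 of the rest of chromosome 3. The difference from the flanks was 42.2 percentage points ± 16.6, with MECOM higher in 50 of 51 cells. It came mainly from the upper flank, with 11.1% of bins contacted, against 79.6% in the lower flank. The difference from the rest of the chromosome was 50.5 points ± 18.4, with MECOM higher in 49 cells.

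Within MECOM the signal was lower at both ends than in the middle. The bin starting at 169100001 was contacted in 49 cells, and its OE was 0.747 in the lowest, 2.96 in the median and 8.64 in the highest cell. The bin starting at 168900001 was contacted in 47 cells with a median OE of 3.55, and only 1.14% of all measured bins had a higher mean OE. The first bin (168800001) was contacted in 40 cells and the last (169300001) in 39, with median OE values of 1.76 in each. At an OE of at least 2 these end bins were contacted in 20 and 21 cells, and the 4 inner bins in 39 to 43. The gene lies on the minus strand in RefSeq, so its outermost start lies at the upper end of the gene.

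All 6 bins were in contact in 31 cells, 5 bins in 11 cells, 4 in 3, 3 in 4, 2 in 1 (cell 43) and 1 in 1 (cell 52). The ends of the gene were contacted together in 31 cells, the first without the last in 9, the last without the first in 8, and neither in 3. OE values of the first and last bins correlated weakly over the 51 cells (Pearson's r = 0.280, Spearman's rho = 0.143), while those of the upper pair of bins correlated more (r = 0.709, rho = 0.557). These correlations describe cells that share depth and library steps. The 20 cells with fewer than 6 bins in contact had a median of 101828 reads, against 162018 in the 31 cells with all 6. After all cells were thinned to 50978 reads, contact covered 83.0% of MECOM bins. The mean OE of MECOM itself varied little with the reads of a cell (r = 0.040, rho = 0.169).

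**Figure D3:**
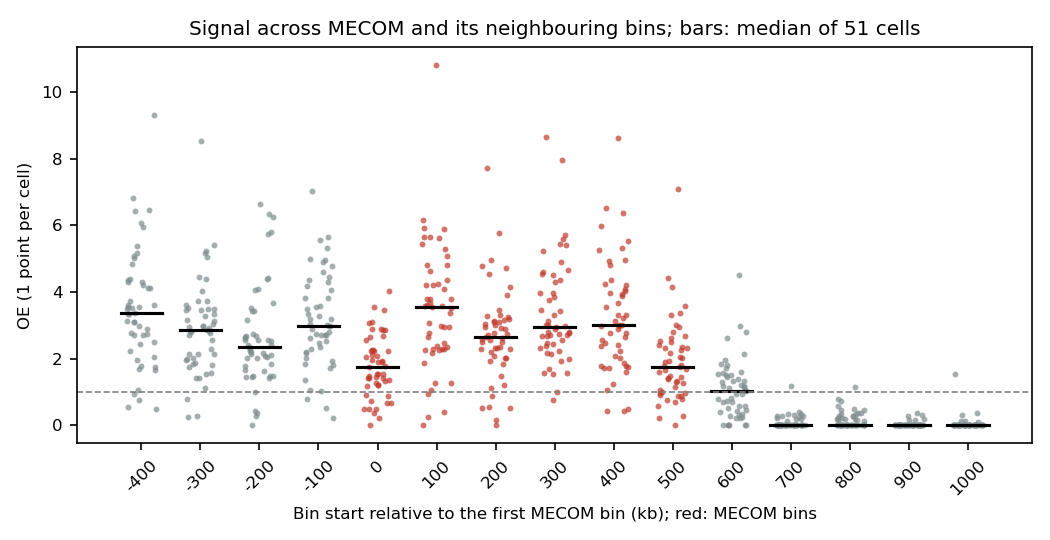
OE (vertical axis) in each of 51 cells (points) in the MECOM bins (red) and in neighbouring bins (grey), by bin start in kb relative to the first MECOM bin, with medians as black lines and an OE of 1 dashed. The median lies near 1 in the bin above MECOM and at 0 in the 4 bins after it.

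A border of contact lay just beyond the start of MECOM. The number of cells in contact was 39 in the last MECOM bin, 26 in the next bin and 1 in the bin after, with mean OE values of 1.92, 1.08 and 0.085. A change of 38 cells or more over 200 kb was found in 1.41% of 26335 such pairs of bins. The other side of the gene had no border, since the adjoining bin (168700001) was contacted in 48 cells. The lower flank was contacted in 79.6% of its bins and the upper flank in 11.1%. MECOM lay at the upper end of a 1.6 Mb stretch, from 167900001 to 169500000, whose 16 bins were each contacted in 26 to 50 cells. In RefSeq's gene order the nearest protein-coding genes are GOLIM4 below MECOM and ACTRT3 and MYNN above it.

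In 48 cells a run of contacted bins passed through the MECOM bin from 169200001 to 169300000. The run ended 100 kb before the end of the last gene bin in 10 cells, at that end in 20 cells and 100 kb past it in 18 cells. Since the bin chosen lies just below the border and the bin from 169500001 was contacted in 1 cell, these upper ends follow from the counts per bin and add nothing to them. Lower ends lay between 163700001 and 169200001, with 30 cells at 167900001 or the next bin and 4 cells below. The runs were 0.2 to 5.7 Mb long, with a median of 1.5 Mb and the longest in cell 33. Over the cells, the mean OE of MECOM correlated with that of its lower flank (r = 0.602, rho = 0.424, and r = 0.329 without the 2 cells farthest from the median), and with that of its upper flank (r = 0.297, rho = 0.319, and r = 0.318 without these cells). For both 2 Mb flanks together r was 0.622 and rho 0.452, and r was 0.382 without the 2 cells, on which much of this correlation rests. Without these cells the coefficients of the 2 Mb flanks were nearly the same. With flanks of 1 Mb, r without the 2 cells farthest from the median was 0.527 below, 0.364 above and 0.565 for both together. The difference between the flanks was not tested.

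**Figure D4:**
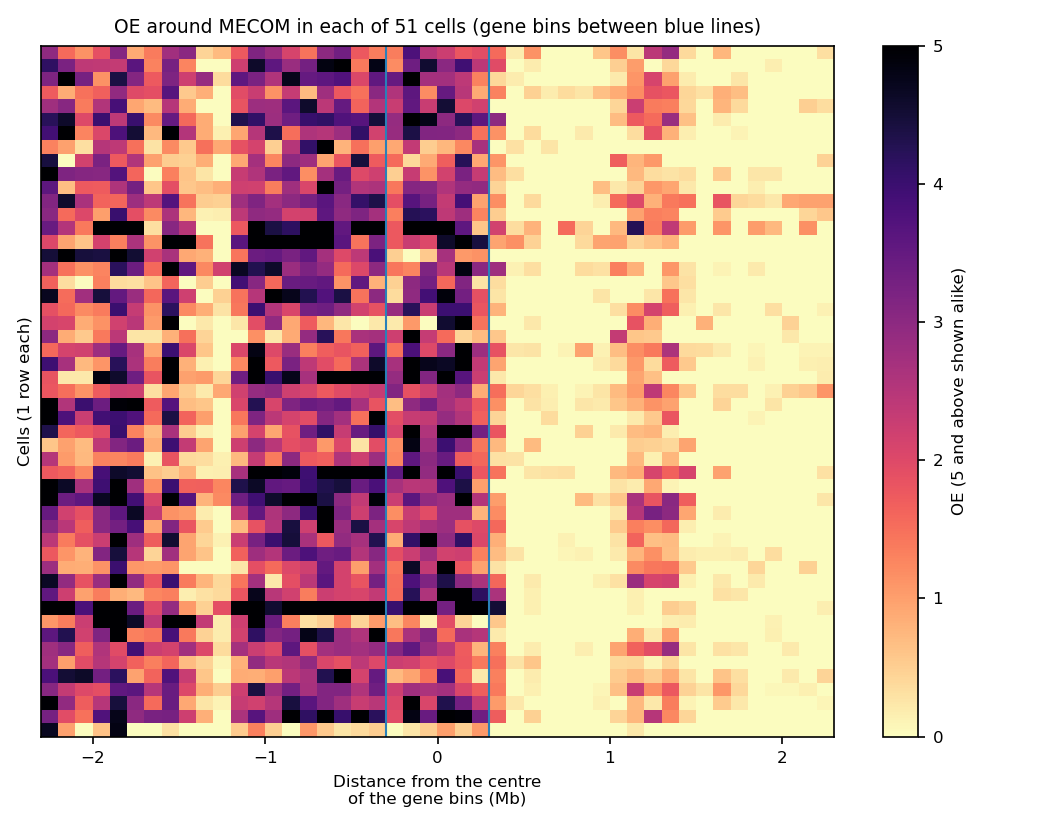
OE around MECOM, with 1 row per cell (51 cells) and 1 column per 100 kb bin, by distance in Mb from the centre of the gene bins. Dark colours are high OE and blue lines bound the gene bins. The dark block ends at or within 100 kb of the right-hand line in nearly all rows.

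GATA2, a zinc finger factor needed to maintain stem and progenitor cells, lies on the same chromosome as MECOM, 40.5 Mb away. Its bin on chromosome 3, from 128200001 to 128300000, had an OE of 0 in all 51 cells. The flanks of GATA2 were contacted in 1.62% ± 3.12 of bins (SD, n = 51), and 36 of the 40 flank bins were contacted in no cell. Of these 40 bins, 18 held no read in any cell. The nearest contact within 2 Mb in any cell lay 1600 kb above, and 36 cells had none within 2 Mb. GATA2 sat in a stretch of 4.3 Mb without contact in any cell, and 29.1% of all bins without contact lie in stretches as long or longer.

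RUNX1 encodes the DNA-binding subunit of core-binding factor, which is required for the first definitive blood stem cells. Its 4 bins on chromosome 21, from 36100001 to 36500000, held 22 reads in 8 cells, and their mean OE was 0 in the median cell and at most 0.184 (cell 32). The flanks of RUNX1 were free of contact, with 0 of 40 bins contacted in any cell. RUNX1 lay in a 5.5 Mb stretch without contact, from 33600001 to 39100000, and 20.9% of bins without contact lie in stretches as long or longer. The rest of chromosome 21 was contacted in 24.1% ± 8.59 of its bins. The first RUNX1 bin held a single read, so its expected number may be off by a whole factor.

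TAL1, a basic helix-loop-helix factor, and LMO2, the adaptor that bridges TAL1 to GATA factors, are both activated in T cell leukaemia. The TAL1 bin (chromosome 1, 47600001 to 47700000) held 11 reads in 6 cells, with an OE of 0 in the median cell and 0.448 in the highest, cell 21. Contact came close on the lower side, where the adjoining bin was contacted in 7 cells (13.7%). On the upper side the nearest bin with contact in 50% of cells or more lay 1100 kb away, and the flanks of TAL1 were contacted in 9.90% ± 7.78 of bins (SD, n = 51). Gene minus flank was -9.90 points, and -3.14 with flanks of 1 Mb. The 2 bins of LMO2 (chromosome 11, 33800001 to 34000000) held 16 reads in 8 cells, with a mean OE of 0 in the median cell and 0.263 in the highest, cell 32. The flanks of LMO2 were contacted in 2.60% ± 4.30 of bins, 4.90% below the gene and 0.294% above it. Neither flank of LMO2 held a bin with contact in 50% of cells or more.

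The ETS family members ETV6 and SPI1 lay in stretches without contact of 2.4 and 4.4 Mb, SPI1 with frequent contact 800 kb above it. ETV6, a repressor needed for blood formation in bone marrow and a fusion partner of RUNX1, covers 3 bins of chromosome 12, from 11800001 to 12100000. These held 29 reads in 7 cells, and their mean OE was 0 in the median cell and 0.285 in the highest, cell 23. ETV6 lay in a stretch of 2.4 Mb without contact in any cell. Of all bins without contact, 46.6% lie in stretches as long or longer. Contact around ETV6 stayed at 5% of cells or fewer in an unbroken 13.4 Mb that begins at the chromosome's first bin. No such share was computed for the 13.4 Mb. SPI1 encodes PU.1, a master factor of myeloid and B cells. Its bin (chromosome 11, 47300001 to 47400000) had an OE of 0 in all 51 cells and lay in a stretch of 4.4 Mb without contact. Stretches as long or longer hold 27.8% of all bins without contact. The flanks of SPI1 differed by side, with 0% of bins contacted below and 36.7% above, where the first bin with contact in 50% of cells or more lay 800 kb away. Gene minus flank was -18.3 points, -6.37 with flanks of 1 Mb and 0 with 0.5 Mb. All 51 cells had contact within 2 Mb above SPI1.

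IKZF1, FLI1 and MYB lay in short stretches without contact, with contact on both sides within 2 Mb in most cells. IKZF1 encodes Ikaros, a zinc finger factor of lymphoid development that is often deleted in acute lymphoblastic leukaemia. FLI1, an ETS factor of megakaryocyte and stem cell programmes, and MYB, which drives progenitor proliferation, complete the group. The stretches without contact in any cell were 0.3 Mb long at IKZF1, 0.3 Mb at FLI1 and 0.4 Mb at MYB. Of all bins without contact, 13.6% lie in stretches of at most 0.3 Mb and 17.1% in stretches of at most 0.4 Mb. The median bin without contact lies in a stretch of 2.1 Mb.

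With flanks of 2 Mb, those of IKZF1 were contacted the most of the 10 genes. Contact covered 0% of its 2 bins (chromosome 7, 50300001 to 50500000), against 64.5% ± 14.7 of its flanks (SD, n = 51 cells) and 34.2% ± 4.79 of the rest of chromosome 7. The gene was lower than its 2 Mb flanks in all 51 cells, which for a gene at 0% only means that each cell had some flank contact. The difference depended on the width of the flank: gene minus flank was -44.3 percentage points with flanks of 1 Mb and -29.6 with 0.5 Mb, against -48.3 and -35.1 at FLI1, so IKZF1 did not rank first with narrower flanks. With contact at an OE of 2 or above, gene minus 2 Mb flank was -41.4 points at IKZF1. The number of cells in contact was 40 in the bin from 50000001, 10 in the next, 0 in the bin from 50200001 and 0 in both gene bins, while on the upper side it was 8 in the first bin. The IKZF1 bins held 29 reads in 8 cells, 12 of them in cell 26, and the mean OE was 0 in the median and 0.387 in the highest cell. All 51 cells had contact on both sides of IKZF1 within 2 Mb and none at the gene, with a gap of 300 to 1900 kb (median 1100 kb) between contacted bins. Contact on both sides in all 51 cells was seen at 2.31% of all bins without contact.

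FLI1 also had contact on both sides. Its 2 bins (chromosome 11, 128500001 to 128700000) were contacted in 0%, against 40.9% ± 14.8 of its flanks (SD, n = 51 cells). Some contact in the flanks was seen in 50 cells. At an OE of 2 or above, gene minus flank was -21.0 points. The lower flank was contacted in 62.6% of its bins and the upper in 19.1%. In RefSeq's gene order the next protein-coding gene below FLI1 is ETS1, its close relative. The nearest bins with contact in 50% of cells or more lay 200 kb away on each side, with 29 cells below and 27 above. Contact on both sides but not at FLI1 was seen in 43 cells, with a gap of 300 to 3300 kb and a median of 600 kb, and as many or more cells had this at 8.40% of all bins without contact. The gene held 14 reads in 5 cells, with a mean OE of 0 in the median cell and 0.303 in the highest, cell 32.

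MYB lay between a contacted region 300 kb above it and another 1300 kb below it. Its bin (chromosome 6, 135500001 to 135600000) held 5 reads in 3 cells, with an OE of 0 in the median cell and 0.452 in the highest, cell 32. The flanks of MYB were contacted in 29.6% ± 11.4 of bins (SD, n = 51 cells), and all 51 cells had some contact in them. At an OE of 2 or above, gene minus flank was -17.5 points. Between the gene and the lower region a smaller peak was contacted in 22 cells at the bin from 135000001 (43.1%). Contact on both sides but not at MYB was seen in 47 cells, with a gap of 400 to 2200 kb and a median of 1100 kb, and 5.54% of all bins without contact had this in as many cells or more. The distance to the nearest bin with contact in 50% of cells or more was 200 kb at IKZF1 and FLI1 and 300 kb at MYB, and 5.60% and 8.61% of all bins without contact lie as near.

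**Figure D5:**
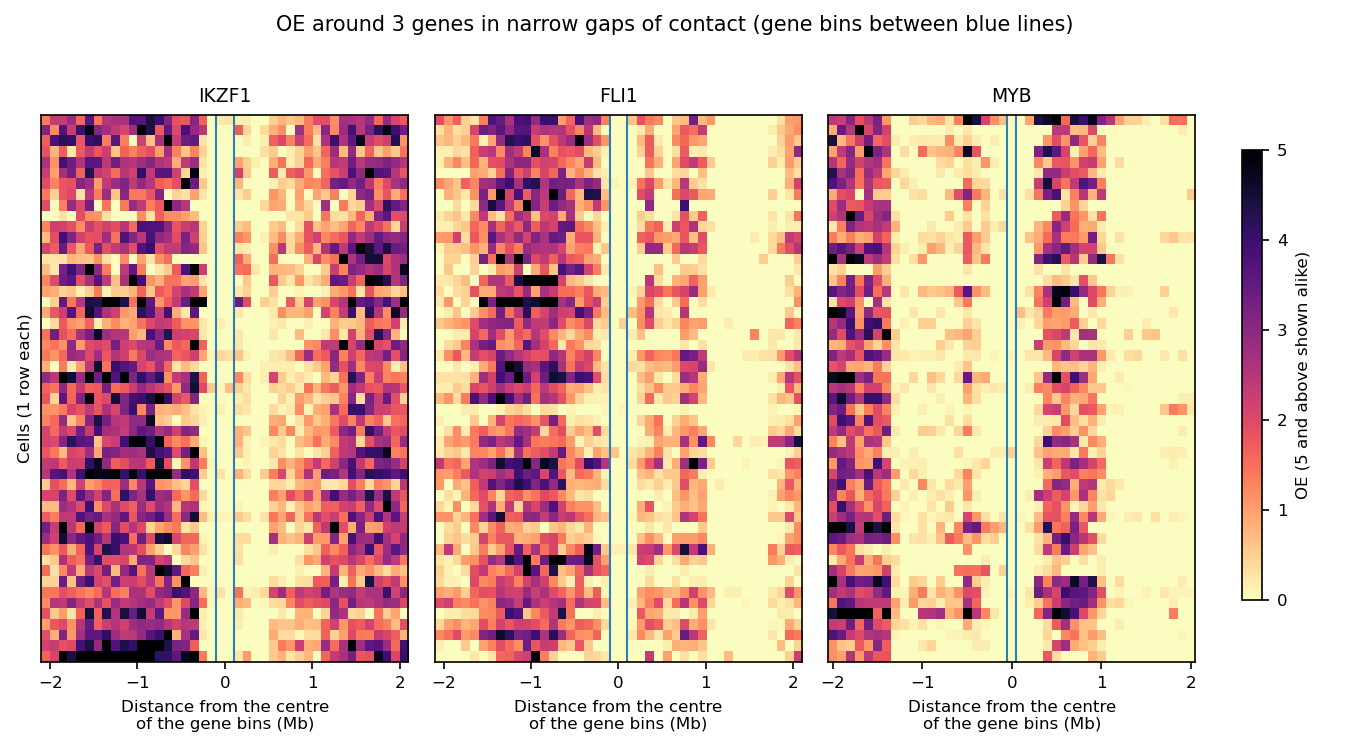
OE around IKZF1, FLI1 and MYB, with 1 row per cell (51 cells) and 1 column per 100 kb bin, by distance in Mb from the centre of the gene bins. Dark colours are high OE and blue lines bound the gene bins, which stay pale in all rows. IKZF1 has contact on both sides in 51 rows, FLI1 in 43 and MYB in 47.

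The 10 genes were also ordered by their distance to frequent contact. MECOM lay inside a contacted stretch. Bins with contact in 50% of cells or more lay on the nearer side within 300 kb of IKZF1, FLI1 and MYB, 800 kb from SPI1 and 1100 kb from TAL1. For LMO2, ETV6, RUNX1 and GATA2 that distance was 2400, 3100, 3400 and 7100 kb, against a median of 2000 kb over all bins without contact that have such a bin on their chromosome. Genes without contact were found on chromosomes of very different overall contact, from 22.2% of the other bins on chromosome 1 (TAL1) to 37.2% on chromosome 3 (GATA2).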

How the data were processed

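Lamin B1 DamID was measured in 52 labelled single KBM7 cells of 1 group, and the 51 with a column were used; cell 47 was not analysed here. The authors deposited ratios of observed to expected signal (OE) per 100 kb bin and cell. Cutadapt and Bowtie2 2.1.0 with build hg19 were used, per the submitters' processing notes. What the expected value was made from is not given in the sources used here.

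Whole reads were recovered from the ratios as reads times a cell factor divided by a whole number per bin, the expected number. With a tolerance of 0.02 reads, 100% of the values above 0 were whole, and the step was also tested on simulated data. Bins of few reads can be off by a whole factor, and contact calls do not depend on it. PCR reads are not independent molecules, so limits cover counting error only. Totals were 50978 to 316463 reads, median 142540.

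The genes and lists were chosen with earlier results of these data known. All 10 genes were named. Bins were contacted at an OE of at least 1, and shares, differences within cells and distances between bin edges were computed in Python 3.11.15 with numpy 2.4.6, pandas 2.3.3 and scipy 1.17.1. With 1 group, no test between groups was made. Pairs of genes contacted in 10% to 90% of cells were to be compared, but none fell in that range: MECOM was contacted in 51 of 51 cells in at least 1 bin and the others in 0. A list of 26 further blood transcription genes was not placed, because gene annotation of build hg19 was not used here. Promoter sequences and gene order come from RefSeq (GRCh38.p14). Alternatives changed the threshold, depth, cells, flanks and gene intervals.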

Additional observations from a re-analysis of the deposited data

How the results depend on the processing

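Under 16 alternative settings, 309 of 344 values kept their direction and stayed within 1 SD over the cells, 35 moved further and 0 reversed. Shares and counts cannot be negative, and a gene at 0% cannot exceed its flanks or chromosome, so most values could not reverse. Many of the 309 compare 0 with 0. Gene minus flank at RUNX1 went from 0 to 0.196 points at an OE of at least 0.5, which counts as moved. For counts and shares of cells the bound was 1.5 times. For the correlation the bound was its 95% interval. The counts of genes contacted and the shares of cells with contact on both sides of IKZF1, FLI1 and MYB were chosen after the data were seen. The 9 genes had 0% of bins contacted with the top 30% of bins in each cell and after thinning to 50978 reads. At an OE of at least 2 they also had 0%, as in odd-numbered cells, even-numbered cells and without the 5 cells of highest background. The 0% values at an OE of at least 2 and in subsets of cells follow from the absence of any OE of 1 or above and add nothing to it. Thinned reads are rescaled, and the top 30% of bins in a cell can reach below an OE of 1. The 0% values of those settings thus did not follow from it. At an OE of at least 0.5, 5 of the 10 genes were contacted in at least 1 cell, and the 9 genes reached at most 1.96% (FLI1). With 1 bin added on each side they reached at most 4.58% (TAL1), because neighbouring bins are contacted. At an OE of at least 2, MECOM was contacted in 67.3% of its bins, contact reached 80% of cells in 2 bins of the list, and 51.0% of cells had contact on both sides of FLI1, all of which follow from the stricter threshold. Over the alternatives MECOM exceeded its flanks by 35.0 to 44.0 points, owed mainly to the little contacted upper flank. It exceeded the rest of chromosome 3 by 43.1 to 52.8 points. Its correlation with both flanks over cells was 0.588 to 0.738. Without the 2 cells farthest from the median it was 0.382 with flanks of 2 Mb and 0.565 with 1 Mb. With flanks of 1 Mb and 0.5 Mb the gene minus flank difference at IKZF1 was -44.3 and -29.6 points, against -64.5 with 2 Mb. Depth limits single bins most in cell 9, and the GATA2 and SPI1 bins, without a read, allow no limit.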
